A study of Mus musculus with 6 samples.

Results

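A set of 10 genes of the fat-cell programme were followed in bone marrow mesenchymal stromal cells (BMSCs) of the mouse: the transcription factor genes Pparg, Cebpa, Cebpb, Cebpd, Zfp423, Klf15 and Ebf2, and the lipid-handling genes Lpl, Fabp4 and Cd36. They were found by gene name in a deposited expression table, and 9 of the 10 names were read there, out of 19739 gene names in all. Cebpd was not analysed here. The cells were primary BMSCs given an adeno-associated virus (AAV) that carries the RNA demethylase FTO, as the form named WT or the form named 3KR, with 3 input libraries per form. The labels do not spell out 3KR, and nothing in the sources used here gives the strain, age or number of mice. An input library holds poly(A) RNA that did not go through the m6A immunoprecipitation, so the values are transcript levels. Both groups overexpress FTO, and no virus-free cells were analysed here, so each difference is 3KR against WT. Fto itself was at 258 ± 9.84 FPKM (SD, n = 3) with the WT form and 443 ± 24.8 with the 3KR form, so the form of FTO and its transcript level differed together.

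Marrow stromal cells can turn into bone, cartilage or fat cells, and fat-cell formation runs through a cascade of transcription factors. In cultured preadipocytes C/EBP-beta and C/EBP-delta come first and switch on PPAR-gamma and C/EBP-alpha, which then maintain each other and turn on fat-cell genes. Zfp423 and Ebf2 act earlier, in committing precursors to the fat lineage, and Klf15 acts beside the later factors. Lpl, Fabp4 and Cd36 are classical PPAR-gamma targets that release, carry and take up fatty acids, and macrophages also express all 3, while capillary endothelium expresses Fabp4 and Cd36.

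The values were FPKM, fragments scaled to the length of the transcript and to the fragments mapped in the library, so levels of different genes can be compared per length. Read counts could not be recovered so the depth of the libraries is unknown. Library sums of FPKM were 390527 to 391767 in WT and 408605 to 421234 in 3KR. Changes were tested with limma on log2(FPKM + 1) over the 10985 genes that reached 1 FPKM in 3 or more of the 6 libraries, with an adjusted p under 0.05 as the threshold. The median tested gene was 0.15 higher in 3KR on this log2 scale, a ratio of 1.11. For the labelled cell type 11 marrow stromal markers were read, all of which were high enough to test. Their summed level was 1674 to 1700 FPKM in WT and 1269 to 1289 in 3KR. Itgb1 was the largest part of that sum, at 479 and 639, and 7 of the 11 had a lower and 4 a higher mean in 3KR. No other cell type was compared, so these levels do not identify the cells. Of 8 genes taken as defining mature fat cells, Plin4 had a mean of 0.318 FPKM in WT and 0.489 in 3KR, and Slc2a4, the insulin-regulated glucose transporter, was at 0.205 and 0.198. The other 6 (Adipoq, Plin1, Cidec, Lep, Retn and Cfd) were under 0.05 FPKM in every library. A wider list of 20 mature fat-cell genes, which adds enzymes that other cells also use, summed to 125 to 127 FPKM in WT and 168 to 174 in 3KR. Lpin1 was the largest part of that sum, at 76.0 and 122.

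The upper part of the cascade and the lipid-handling genes moved in both directions. Cebpa and Pparg rose in 3KR, while Cebpb and, most of all, Lpl fell. Fabp4 and Zfp423 rose slightly as deposited, Klf15 was not called, and Ebf2 and Cd36 lay under the filter. All 7 tested genes were at 1 FPKM or more in each of the 6 libraries, so none passed the filter through 1 group alone. As deposited, 4 of the 7 were called higher, against 46.7% of all genes tested, and 2 were called lower, against 14.0%; in either direction 60.6% of all genes were called. The groups did not overlap, with 3KR above, for 3 of the 7 (51.2% of all genes) and with 3KR below for 2 (15.5%). After median ratio scaling 2 of the 7 were called higher, against 21.6% of all genes, and 2 lower, against 24.1%. The median log2 change of the 7 was 0.29, against 0.15 over all genes. With 7 genes, shares of this size lie near the background, so the sizes of the changes below carry the description, not the number of calls. Over all genes the split as deposited was 5127 higher against 1535 lower, and it was 2371 against 2645 with median ratio scaling, 3682 against 1989 with equal library sums, and 3137 against 2186 with quantile normalization.

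**Figure D1:**
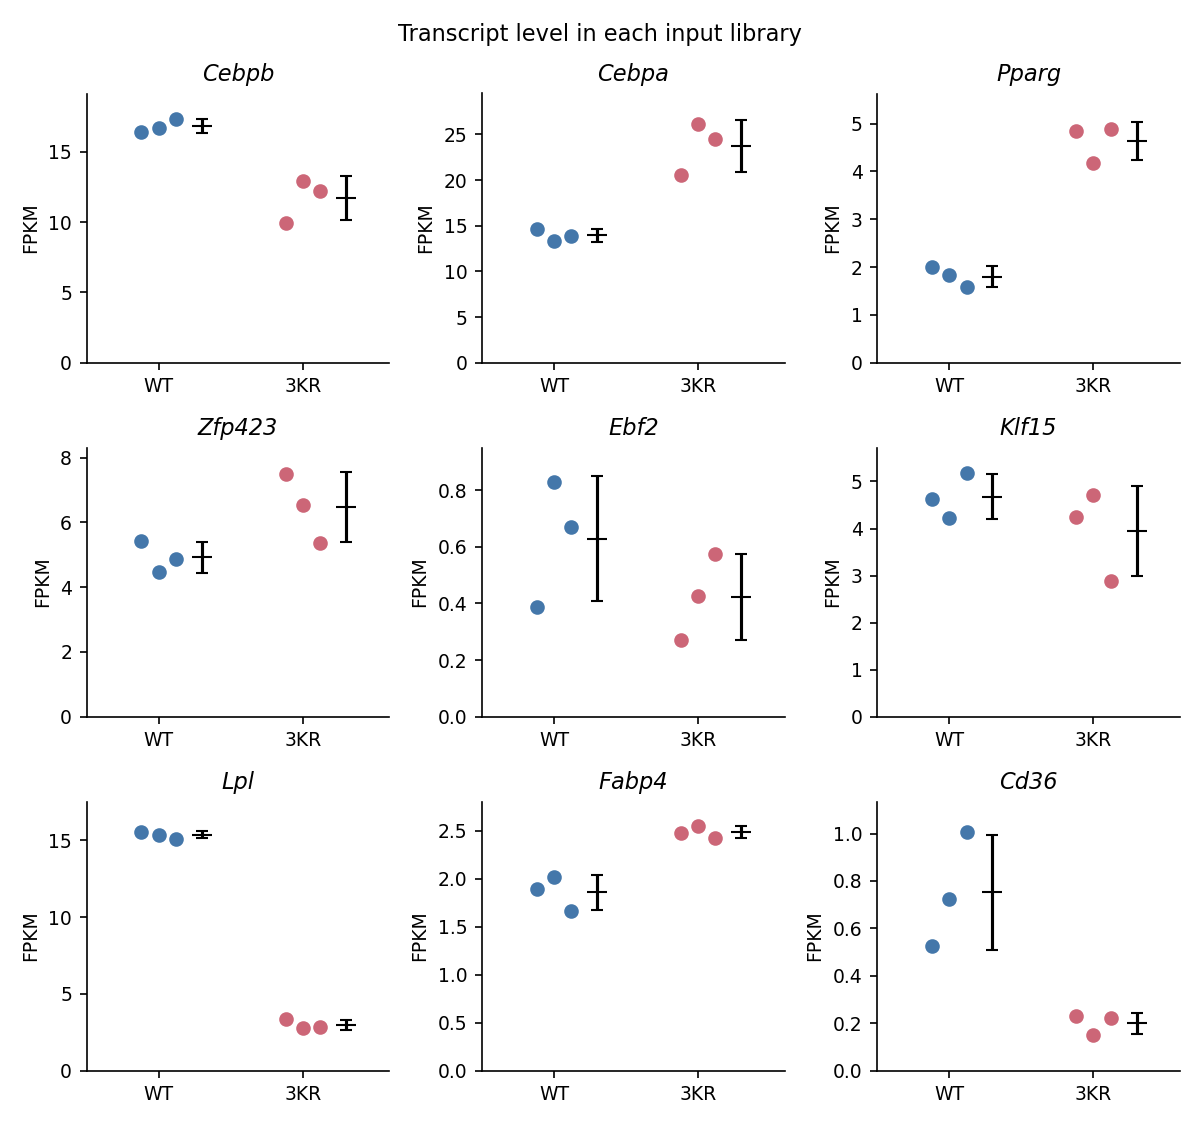
FPKM of the 9 genes in each of the 3 WT and 3 3KR libraries (points), with the mean and SD beside them (black); each vertical axis starts at 0 and has its own scale. Pparg, Cebpa and Fabp4 were higher and Cebpb, Lpl and Cd36 lower in each 3KR library than in any WT library, while Zfp423, Klf15 and Ebf2 overlapped.

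The C/EBP genes changed in opposite directions. Cebpb encodes C/EBP-beta, which opens the cascade and also serves inflammatory and acute-phase transcription. Its level was 16.4, 16.7 and 17.4 FPKM in the WT libraries and 9.94, 12.9 and 12.2 in the 3KR libraries, in the order of replicates 1, 2 and 3. The groups did not overlap, and the lowest 3KR library was replicate 1. Cebpb fell by 0.50 on the log2 scale (95% interval -0.69 to -0.30; limma adjusted p = 0.001396), from a mean of 16.8 ± 0.485 to 11.7 ± 1.56 FPKM (SD, n = 3), which is 1.44-fold lower. Cebpa encodes C/EBP-alpha, the later partner of PPAR-gamma. Its level was 14.7, 13.3 and 13.9 FPKM in WT and 20.5, 26.1 and 24.5 in 3KR, and again 3KR replicate 1 was the lowest of its group. Cebpa rose by 0.72 on the log2 scale (95% interval 0.53 to 0.92; limma adjusted p = 0.0001751), a 1.70-fold higher mean. Both calls held under all 4 scalings. In bulk RNA, fewer cells of a type and less RNA per cell cannot be told apart, here and in every result that follows. Nothing in the labels ties the replicates to different mice or cultures, and the p-values describe only the spread among these libraries, and that spread may be technical.

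The balance within the C/EBP pair is free of any single factor that scales a whole library, because both genes are read in the same one. Quantile normalization is not such a factor, and with it the log2 difference between the groups was 1.31 in place of 1.30. Cebpa stood at 0.894, 0.794 and 0.798 times the FPKM of Cebpb in WT and at 2.07, 2.02 and 2.01 times in 3KR. The FPKM of Cebpb was thus the higher in each WT library and that of Cebpa in each 3KR library. The quantifier and the annotation are not given, so the order of 2 transcripts at ratios near 1 is not settled. The ratio was 2.46-fold higher in 3KR, a log2 difference of 1.30, against an SD of 0.0972 in WT and 0.0218 in 3KR. The exact permutation test, two-sided, gave p = 0.1, the smallest that 3 against 3 libraries allow. The planned ratio to Cebpd could not be computed.

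Promoter sequence from RefSeq, on mouse assembly GRCm38.p6, is shown for Cebpa and Cebpb because these family members moved apart. Each run is the 250 bases before an annotated start, 5′ to 3′ on the strand of the gene, and capitals mark a match on either strand to 1 of 5 motifs: TATAAA, a core promoter element, the CCAAT element, the C/EBP core TTGCNNAA, the element AGGTCA that PPAR-gamma sites repeat, and the E-box CACGTG. No build that names mouse is given for the deposited values, so these coordinates belong to the reference and not to the measurements.
Cebpa, chr7:35119043-35119292, plus strand: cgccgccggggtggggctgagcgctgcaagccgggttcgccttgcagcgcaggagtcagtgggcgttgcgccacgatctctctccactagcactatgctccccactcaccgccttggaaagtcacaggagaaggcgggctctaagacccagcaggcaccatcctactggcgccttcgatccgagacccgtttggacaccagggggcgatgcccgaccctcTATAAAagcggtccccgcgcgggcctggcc
Cebpb, chr2:167688665-167688914, plus strand: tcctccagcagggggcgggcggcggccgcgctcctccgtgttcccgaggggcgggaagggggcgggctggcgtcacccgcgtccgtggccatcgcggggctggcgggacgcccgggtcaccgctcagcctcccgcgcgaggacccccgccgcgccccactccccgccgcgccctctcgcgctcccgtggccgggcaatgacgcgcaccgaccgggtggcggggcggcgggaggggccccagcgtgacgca
The Cebpa window held TATAAA 30 to 25 bases before the start, a motif in 12.4% of the 32851 RefSeq windows of this length. The Cebpb window, with 81.6% G and C against a median of 52.4% over all windows, held none of the 5. No match says only that these letters are not in this window.

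Pparg encodes PPAR-gamma, the nuclear receptor without which fat cells do not form. It was at 1.997, 1.83 and 1.58 FPKM in the WT libraries and at 4.84, 4.18 and 4.90 in the 3KR libraries. The lowest 3KR library was more than 2 FPKM above the highest WT library. Pparg rose by 1.01 on the log2 scale (95% interval 0.82 to 1.20; limma adjusted p = 2.05e-05), from 1.80 ± 0.212 to 4.64 ± 0.401 FPKM (SD, n = 3), a 2.58-fold higher mean. Relative to the median gene the log2 change was 0.86, and it was called under all 4 scalings. Its rank among all genes by mean FPKM went from 9637 in WT to 7555 in 3KR, so it remained a gene of low level beside Cebpa, which went from 4013 to 2869.

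Pparg is transcribed from more than one promoter, and the fat-cell form PPAR-gamma-2 starts at a downstream one. RefSeq lists 3 start windows, whose starts lie 1205 and 60922 bases after the first. The first and the last are shown, because the single FPKM of Pparg does not say which start was used.
Pparg, first window, chr6:115360894-115361143, plus strand: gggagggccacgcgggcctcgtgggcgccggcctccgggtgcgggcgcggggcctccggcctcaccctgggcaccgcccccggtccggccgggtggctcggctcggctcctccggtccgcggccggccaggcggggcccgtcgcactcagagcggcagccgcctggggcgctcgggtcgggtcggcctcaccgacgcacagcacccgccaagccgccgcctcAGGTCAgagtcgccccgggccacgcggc
Pparg, last window, chr6:115421816-115422065, plus strand: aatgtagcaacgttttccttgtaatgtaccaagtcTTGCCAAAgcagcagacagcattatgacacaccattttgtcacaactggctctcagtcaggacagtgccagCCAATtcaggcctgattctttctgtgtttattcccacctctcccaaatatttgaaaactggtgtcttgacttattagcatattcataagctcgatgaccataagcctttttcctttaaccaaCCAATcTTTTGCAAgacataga
The windows differ in composition, with 82.4% G and C in the first and 40.8% in the last. The last held TTGCNNAA at 2 places, 215 to 208 and 16 to 9 bases before the start, and CCAAT at 2 places, 144 to 140 and 22 to 18 bases before it. Of all RefSeq windows 9.56% hold TTGCNNAA and 33.8% hold CCAAT. The first held 1 copy of AGGTCA, a motif in 14.0% of windows. Of the 9 genes, 6 had windows in the RefSeq table. A match is a description of letters and not a measured site.

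Of the other 3 transcription factor genes, Zfp423 was called higher as deposited, Klf15 was not called and Ebf2 was not tested with the filter. Zfp423 encodes a zinc-finger protein of committed preadipocytes. It was at 5.43, 4.48 and 4.86 FPKM in WT and at 7.51, 6.55 and 5.37 in 3KR, and the lowest 3KR library lay under the highest WT library. Its mean was 1.32-fold higher, a log2 change of 0.33 (95% interval 0.08 to 0.58; limma adjusted p = 0.02817). This call held as deposited and under no other scaling (limma adjusted p = 0.09058 with the same sum, 0.2297 after median ratio scaling and 0.1919 after quantile normalization). It was also lost without WT replicate 2 (limma adjusted p = 0.08811), WT replicate 3 (0.067), 3KR replicate 1 (0.07717) or 3KR replicate 2 (0.06939), and without a filter on low values (0.09295).

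Klf15 encodes a Krüppel-like factor induced by glucocorticoids and during fat-cell maturation. It was at 4.63, 4.22 and 5.18 FPKM in WT and at 4.25, 4.71 and 2.88 in 3KR, where replicate 3 was the lowest. The groups overlapped and the change was not called, at -0.21 on the log2 scale (95% interval -0.53 to 0.10; limma adjusted p = 0.2068). The interval leaves room for a fall of up to 0.53, so equal levels were not shown. The value rested on 3KR replicate 3: the log2 change was -0.049 without that library and -0.33 without 3KR replicate 2, and it was -0.35 after median ratio scaling and -0.34 after quantile normalization, none of them called. Ebf2 encodes a factor that marks precursors of brown fat. It was at 0.389, 0.828 and 0.671 FPKM in WT and at 0.270, 0.427 and 0.574 in 3KR, under 1 FPKM in all 6 libraries and with overlapping groups. It was not tested with the filter, and without a filter its limma adjusted p was 0.3207.

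The lipid-handling genes did not move together. Lpl encodes lipoprotein lipase, the enzyme that frees fatty acids from circulating triglyceride. It was at 15.6, 15.4 and 15.1 FPKM in the WT libraries and at 3.34, 2.78 and 2.82 in the 3KR libraries. Each group was tight, and the gap between them was wider than 11 FPKM. Lpl fell by 2.04 on the log2 scale (95% interval -2.19 to -1.90; limma adjusted p = 1.019e-07), a 5.15-fold lower mean, and was called lower under all 4 scalings.

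Fabp4 encodes the fatty acid-binding protein of fat cells, also known as aP2. It was at 1.90, 2.02 and 1.66 FPKM in WT and at 2.47, 2.55 and 2.43 in 3KR, so each 3KR library lay above each WT library. The mean was 1.34-fold higher, a log2 change of 0.29 (95% interval 0.13 to 0.44; limma adjusted p = 0.006811). This call was kept with each library rescaled to the same sum (limma adjusted p = 0.02161) and was lost after median ratio scaling (0.07074) and quantile normalization (0.05759). Relative to the median gene the change was 0.14.

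Cd36 encodes a fatty acid transporter and scavenger receptor. It was at 0.527, 0.723 and 1.01 FPKM in WT and at 0.230, 0.149 and 0.221 in 3KR. The groups did not overlap, and WT replicate 3 was the only library above 1 FPKM, so Cd36 was left out by the filter. Its mean was 0.753 ± 0.242 in WT and 0.200 ± 0.0441 in 3KR (SD, n = 3), 3.76-fold lower. Without a filter its log2(FPKM + 1) change was -0.54 with a limma adjusted p of 0.01161. With a pseudocount of 0.1 the same change was -1.48, so the size on the log2 scale depends on the pseudocount.

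Markers of other cells that use these lipid genes also differed between the groups. Of 15 macrophage markers read, 15 had a lower mean in 3KR, and their summed level was 10.4 to 11.4 FPKM in WT and 1.65 to 3.21 in 3KR. Mpeg1, which encodes a pore-forming protein of macrophages, was the largest part of that sum, at 6.79 in WT and 0.854 in 3KR, and was the 1 called lower of the 2 that could be tested. Cd68 was at 1.16 and 0.700 and Csf1r at 0.269 and 0.221, both with overlapping groups. Ptprc was at 0.119 and 0.0219, Adgre1 at 0.301 and 0.0305, and Itgam at 0.147 and 0.00703. The complement genes C1qa, C1qb and C1qc were listed at 0 in each 3KR library. Their WT means were also near 0, at 0.0347, 0.0339 and 0.0513, and C1qa was at 0 in WT replicate 2. Of 12 endothelial markers, 7 had a lower and 3 a higher mean in 3KR, and the sum was 7.76 to 8.26 FPKM in WT and 3.71 to 4.04 in 3KR. Tek, an angiopoietin receptor, led that list at 5.14 and 1.46 and, with Erg, was called lower. The other 10 had means under 1 FPKM in both groups. Egfl7 at 0.783 and 0.987, Kdr at 0.139 and 0.335 and Esam at 0.0495 and 0.120 were higher in each 3KR library than in any WT library. Cdh5 was at 0.396 and 0.208 and Pecam1 at 0.0277 and 0.0098, with overlapping groups, and Tie1 and Cldn5 were at 0 in every library. The part of these cells in the levels of Lpl, Cd36, Fabp4 and Cebpb was not tested.

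**Figure D2:**
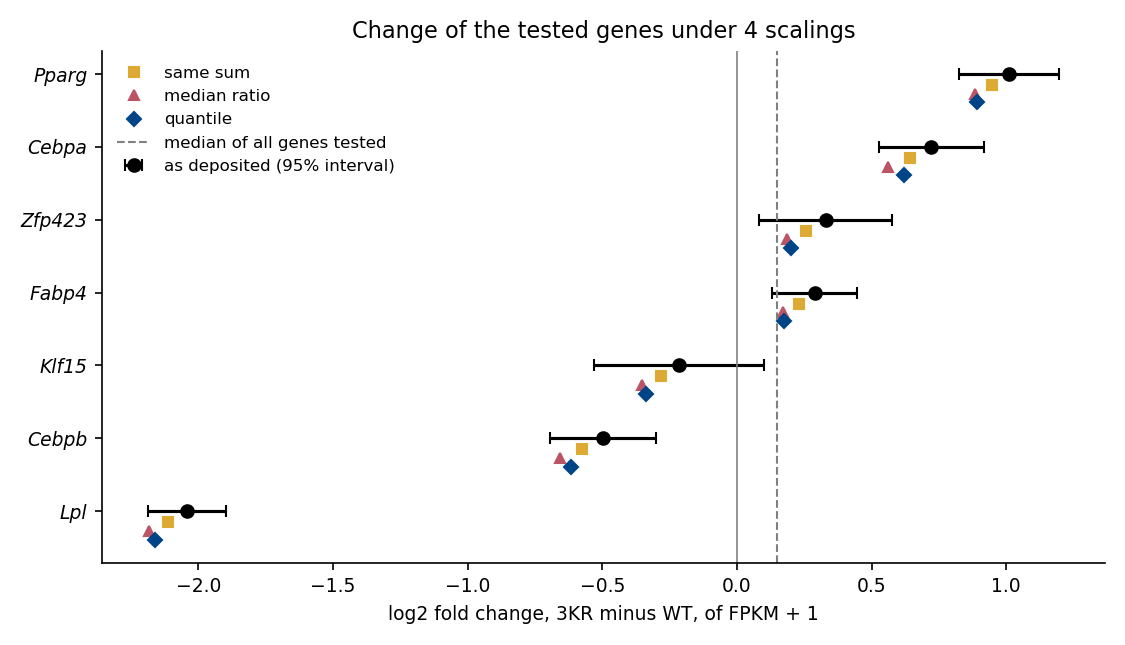
Log2 fold change of FPKM + 1, 3KR minus WT, for the 7 tested genes: black points with 95% intervals as deposited, coloured points after rescaling to the same sum, median ratio scaling and quantile normalization; the dashed line is the median of all genes tested (0.15). Pparg and Cebpa lie above and Cebpb and Lpl below 0 under each scaling. The dashed line belongs to the values as deposited, where Zfp423 and Fabp4 lie nearest to it. The median of all genes was 0.079 with the same sum, 0.0053 after median ratio scaling and 0.045 after quantile normalization.

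The within-library ratios of Pparg to its classical targets were higher in 3KR than in WT. Lpl and Cd36 fell while Pparg rose, but Fabp4 also rose as deposited, by less than Pparg. Pparg stood at 0.128, 0.119 and 0.104 times the FPKM of Lpl in the WT libraries and at 1.45, 1.503 and 1.73 times in the 3KR libraries. The FPKM of Lpl was thus the higher of the pair in each WT library and that of Pparg in each 3KR library. The ratio shifted 13.4-fold (log2 difference 3.74). Against Fabp4 the ratio of Pparg was 1.05, 0.906 and 0.950 in WT and 1.96, 1.64 and 2.02 in 3KR, a shift of 1.92-fold. Against Cd36 it was 3.79, 2.53 and 1.56 in WT and 21.1, 28.0 and 22.1 in 3KR, a shift of 9.55-fold. That size rests on Cd36 at 0.149 to 0.230 FPKM in 3KR, under the filter. Its log2 difference of 3.26 became 1.55 with a pseudocount of 1. The WT values of this last ratio spread most, with an SD of 0.640 on the log2 scale, against 0.218 in 3KR. For none of the 4 ratios computed did the groups overlap. For Cebpa to Cebpb, Pparg to Lpl and Pparg to Cd36 this follows from the single genes, which lay apart in opposite directions. It is therefore no further evidence for those pairs. No share of non-overlapping ratios over all gene pairs was computed. Each gave an exact permutation p = 0.1, two-sided, the smallest possible here, and 0.1 after Benjamini-Hochberg adjustment over the 4.

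**Figure D3:**
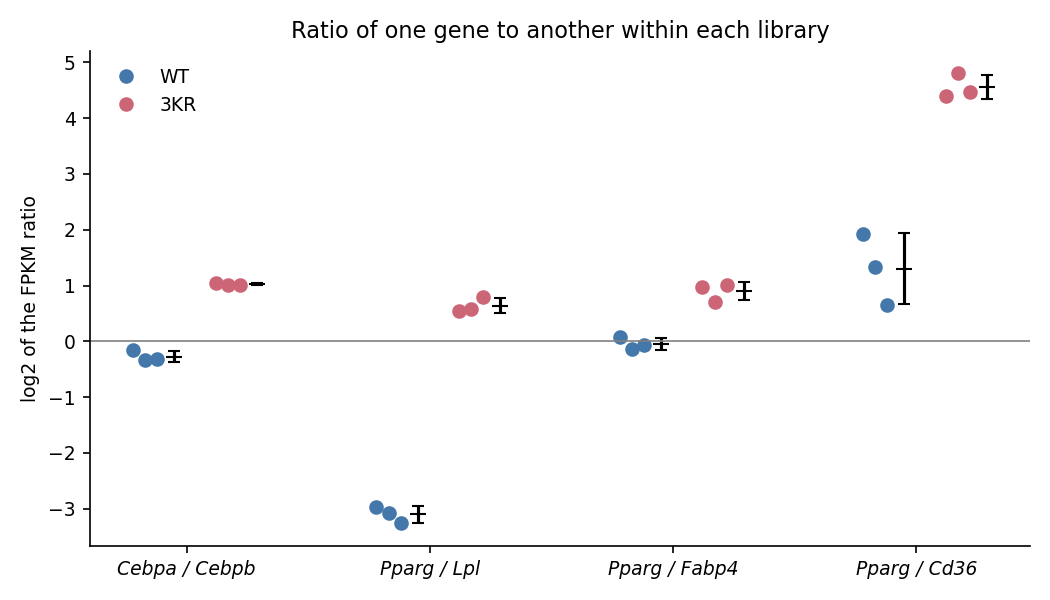
Log2 of the FPKM ratio of gene pairs within each library, for 3 WT and 3 3KR libraries (points), with mean and SD (black); 0 means equal FPKM. Cebpa / Cebpb and Pparg / Lpl lie below 0 in each WT library and above 0 in each 3KR library, and Pparg / Fabp4 and Pparg / Cd36 are higher in each 3KR library.

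The order of the 9 genes by level changed with the form of FTO. In WT the order by mean FPKM was Cebpb, Lpl, Cebpa, Zfp423, Klf15, Fabp4, Pparg, Cd36 and Ebf2. Neighbours whose libraries overlapped were Zfp423 with Klf15, Fabp4 with Pparg, and Cd36 with Ebf2. In 3KR the order was Cebpa, Cebpb, Zfp423, Pparg, Klf15, Lpl, Fabp4, Ebf2 and Cd36, and Pparg overlapped Klf15, as did Lpl. Lpl went from the second place to the sixth and Pparg from the seventh to the fourth. The summed FPKM of the 9 genes was 59.5 to 61.5 in WT and 53.4 to 60.4 in 3KR.

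The genes whose pattern over the 6 libraries was closest to those of Pparg and Lpl were found by the Euclidean distance between log2(FPKM + 1) values, each centred on its own mean. Closest to Pparg were Gse1 (distance 0.108), Top2a, the DNA topoisomerase of dividing cells (0.129), and D030056L22Rik (0.142). Gse1 had a mean of 11.2 FPKM in WT and 23.9 in 3KR, and Top2a at 7.16 and 15.1. Closest to Lpl were Sfrp1, a secreted Wnt antagonist (0.0945), Smoc2, a matricellular protein (0.110), and Rnf144a, a ubiquitin ligase (0.128). Sfrp1 had a mean of 168 FPKM in WT and 41.3 in 3KR, and Smoc2 at 69.6 and 15.9. With 2 groups this likeness mostly reflects a group difference of the same size.

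Other genes of the pathway were read in 6 lists, of which Stat5a and Ucp1 (and Lyz2 of the macrophage list) were not analysed here, beside a median log2 change of 0.15 over all genes tested. Of 15 tested further activators of adipogenesis, 5 were called higher, 1 of them under all 4 scalings, and 6 lower under all 4, with a median log2 change of 0.04. Prdm16, a co-regulator of brown fat, rose from 4.91 ± 0.280 to 6.34 ± 0.265 FPKM (SD, n = 3). Ebf3, of the same family as Ebf2, fell from 10.6 ± 0.670 to 6.87 ± 0.634, and Bmpr1a, a BMP receptor, from 94.1 ± 3.30 to 78.9 ± 1.04. Of 16 tested inhibitors of adipogenesis, 9 were called higher, 6 of them under all 4 scalings, and 3 lower under all 4, with a median of 0.20. Dlk1, the preadipocyte protein Pref-1, rose from 22.6 ± 1.26 to 37.4 ± 1.15 FPKM. Zfp521, an antagonist of Zfp423, fell from 24.5 ± 0.882 to 15.1 ± 0.747, and Trib3, a stress-induced pseudokinase that restrains C/EBP-beta and PPAR-gamma, fell from 24.2 ± 0.590 to 7.60 ± 0.329. These counts stand beside 46.7% of all tested genes called higher and 14.0% lower, which is 21.6% and 24.1% after median ratio scaling. Under all 4 scalings 2365 of the 10985 genes tested were called higher and 1525 lower. No difference between either list and all genes was tested.

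The lists of fat-cell genes and of lipid handling stand beside the same shares over all genes. Of 20 mature fat-cell genes read, only 6 could be tested, and 12 of the other 14 were under 0.5 FPKM in every library. Of the 6, 1 was called higher and 2 lower, all 3 under all 4 scalings, with a median log2 change of 0.04. Lpin1, a phosphatidate phosphatase, rose from 76.0 ± 1.52 to 122 ± 0.445 FPKM (SD, n = 3). Mest fell from 5.79 ± 0.294 to 2.20 ± 0.126, and Dgat2, an enzyme of triglyceride synthesis, from 2.19 ± 0.151 to 1.29 ± 0.109. Of 14 tested PPAR targets, 4 were called higher, 3 of them under all 4 scalings, and 4 lower under all 4, with a median of -0.0048. Angptl4, a PPAR target whose protein inhibits lipoprotein lipase, fell from 87.9 ± 2.73 to 10.7 ± 1.01 FPKM, 8.18-fold lower (limma adjusted p = 2.679e-08). The enzyme gene and the gene of its inhibitor were therefore both lower in 3KR. Me1, malic enzyme, rose from 14.0 ± 0.331 to 21.2 ± 0.757 FPKM.

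Of 14 tested genes of fatty acid uptake and lipase handling, 5 were called higher, 3 of them under all 4 scalings. Another 7 were called lower under all 4, and the median of the list was -0.03. Over all 10985 genes tested, 46.7% were called higher and 14.0% lower, or 21.6% and 24.1% after median ratio scaling. Under all 4 scalings 2365 were called higher and 1525 lower. No difference between the lists of this paragraph and all genes was tested. Lipa, lysosomal acid lipase, fell from 68.4 ± 0.999 to 44.0 ± 0.963 FPKM (SD, n = 3), and Vldlr, a lipoprotein receptor, from 73.5 ± 5.39 to 50.6 ± 1.73, while Cav1, caveolin-1, rose from 11.7 ± 0.306 to 15.9 ± 0.0348. Of 9 tested glucocorticoid-responsive genes, read because Klf15 is one, 3 were called higher and 4 lower, all under all 4 scalings, with a median of -0.12. The metallothioneins Mt2 and Mt1 fell from 273 ± 10.1 to 82.4 ± 9.76 and from 103 ± 0.948 to 65.4 ± 7.20 FPKM, and Dusp1, a phosphatase, rose from 3.15 ± 0.281 to 5.71 ± 0.397. Of the 11 marrow stromal markers, 3 were called higher and 6 lower, all under all 4 scalings, with a median of -0.12. Lepr, the leptin receptor, rose from 3.68 ± 0.258 to 16.9 ± 0.501 FPKM, and Cxcl12 and Ly6a fell to 70.3 ± 3.06 from 409 ± 8.41 and to 102 ± 8.25 from 308 ± 1.65.

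**Figure D4:**
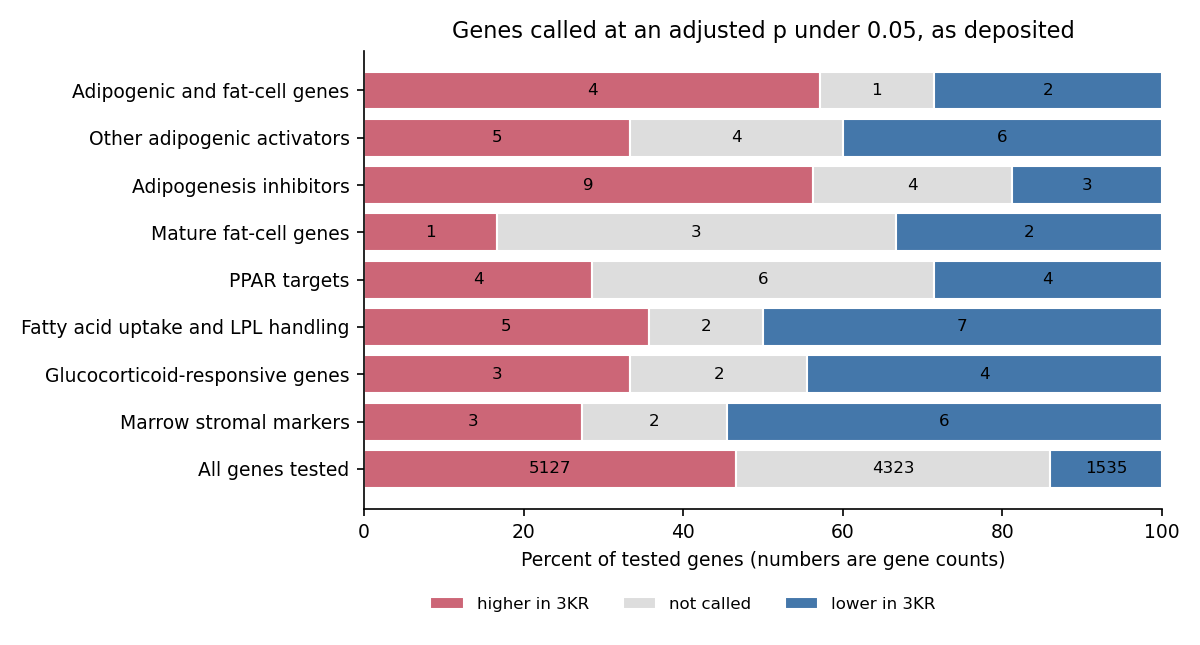
Share of the tested genes of each list called higher, not called or called lower in 3KR at a limma adjusted p under 0.05 as deposited, with gene counts in the bars and all 10985 tested genes at the bottom. Each list shown holds genes of both directions, and the split over all genes (5127 higher, 1535 lower) depends on the scaling. The macrophage and endothelial lists, with 2 tested genes each, are not shown. They held 1 and 2 genes called lower and 0 called higher.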

How the data were processed

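The authors deposited 1 table of FPKM values per gene name and input library, per the file headers. For the aligner, quantifier, annotation and use of strand, nothing is given in the sources used here. GRCh38, a human assembly, is the only build in the submitters' processing notes, so no coordinates are given for the measurements.

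Of 19763 rows, 24 had a name already seen, and of these the one with the higher mean was kept. No read counts could be recovered: among genes under 2 FPKM, the most frequent ratio of 2 libraries was shared by 10 of 5669 genes. Genes at 1 FPKM or more in at least 3 of 6 libraries (10985) were tested as log2(FPKM + 1) with limma 3.58.1 in R 4.3.3 (intensity trend, two-sided, Benjamini-Hochberg over all genes tested, threshold 0.05). This scale understates changes of low genes. The fit was checked on simulated data in which few genes changed and no library-wide shift was present. That check does not bear on the choice of scaling. Within-library ratios were compared by exact permutation tests.

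The 10 genes and the lists were chosen with earlier results of these data known. The text names all 10 genes, up to 3 tested genes of each list with the smallest p, and the 3 nearest patterns to the largest and smallest change; marker genes named at low or 0 values were chosen after their values were seen. A PPAR target that this rule names is not reported here. Alternatives were another pseudocount, 2 other filters, 3 other scalings, a replicate block, no intensity trend and leaving out each library.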

Additional observations from a re-analysis of the deposited data

How the results depend on the processing

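The number of the 10 genes called higher went from 4 to 2 among genes at 5 FPKM or more, where Pparg and Fabp4 are not tested, to 2 after median ratio scaling and to 2 after quantile normalization, where the calls of Zfp423 and Fabp4 were lost. With a pseudocount of 1 the log2 differences of the within-library ratios became 1.22 for Cebpa to Cebpb, 3.05 for Pparg to Lpl, 0.72 for Pparg to Fabp4 and 1.55 for Pparg to Cd36, since a pseudocount pulls low values together. The calls and directions of Pparg, Cebpa, Cebpb and Lpl were kept under each alternative that could test them, including each library left out in turn. No tested gene reversed. Libraries of the same replicate number showed no shared deviation: deviations from the group means correlated at -0.0147, 0.0295 and -0.0338. These correlations cannot tell whether libraries of the same number shared a mouse or culture. With the replicate block 6425 genes were called in place of 6662, and 4 of the 10 genes were higher and 2 lower, as without it. As the depth is unknown, no counting error can be given for any gene, Cd36 and Ebf2 under 1 FPKM included.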
